A study of Mus musculus with 4 samples.

Results

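Type B intercalated cells are the bicarbonate-secreting cells of the distal nephron. They were gated here from single-cell RNA-Seq of the mouse renal cortex by 3 rules on the counts of each barcode scaled to 10000 (CP10k). A barcode was taken as type B if the intercalated cell subunits of the proton pump, Atp6v1g3 plus Atp6v0d2, reached 5 CP10k, if Slc26a4 reached 1 CP10k, and if Slc26a4 exceeded Slc4a1. Barcodes needed at least 1000 detected genes and at most 50% of their unique molecular identifiers (UMIs, each standing for 1 captured molecule) from mitochondrial genes. The rules left 970 type B cells of 32407 barcodes that passed these filters and of 48085 deposited barcodes.

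The study compared kidneys of male mice with and without deletion of Tfeb, a transcription factor of autophagy and lysosomal genes, in the proximal tubule, at 6 weeks and at 24 months. Each of the 4 conditions was 1 library, prepared from the pooled cortex of several mice: young Tfebfl/fl, young Tfebfl/fl KAP, aged Tfebfl/fl and aged Tfebfl/fl KAP. All mice carried floxed Tfeb alleles, the Tfebfl/fl mice served as controls without Cre, and in Tfebfl/fl KAP mice Cre was driven by the androgen-inducible promoter of kidney androgen-regulated protein, which is active in the proximal tubule and not expected in intercalated cells. With 1 library a condition there was no test between conditions, and a difference between conditions cannot be told apart from a difference between the pooled samples. Values of the 4 libraries are given below in the order above.

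Intercalated cells sit between the principal cells of the connecting tubule and collecting duct and regulate acid-base balance with a vacuolar proton pump (V-ATPase). Type A cells place the pump at the luminal membrane and the anion exchanger AE1 (Slc4a1) at the blood side, and so secrete acid. Type B cells do the reverse: pendrin (Slc26a4) exchanges luminal chloride for bicarbonate, the pump works toward the blood side, and the sodium-dependent transporter AE4 (Slc4a9) lies basolaterally. Insrr, the insulin receptor-related receptor, responds to alkaline extracellular pH, and the forkhead factor Foxi1 is required for intercalated cell identity.

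Slc26a4 (chromosome 12, 31519827 to 31559969, minus strand) and Atp6v1g3 (chromosome 1, 138273738 to 138289462, plus strand) chose the cells. Outside the gate, Insrr (chromosome 3, 87796951 to 87816101, plus strand) was listed as a type B marker and Hmx2 (chromosome 7, 131548773 to 131558014, plus strand) as a type A marker. Both were higher in type B than in type A cells, for Hmx2 against its list. Sult2a3 (chromosome 7, 14067446 to 14123044, minus strand), Scg5 (chromosome 2, 113776362 to 113829121, minus strand) and Id3 (chromosome 4, 136143497 to 136145755, plus strand) were past 2-fold higher with age in both genotypes under all 10 alternatives. All 7 are protein-coding genes, with positions from the GENCODE annotation of GRCm38, the assembly also called mm10. Windows around the start sites of 4 genes are printed because 3 of them are intercalated cell genes of the gate or the pump and the other, Sult2a3, had the largest ratio among the genes past 2-fold in both age comparisons. Each runs from 250 bases before to 50 after the start, 5′ to 3′ on the strand of the gene, from RefSeq (GRCm38.p6). Capitals mark the letters TGTTTA or TGTTTG, on either strand, the core bound by forkhead factors.
Slc26a4, chr12:31559935-31560234, minus strand: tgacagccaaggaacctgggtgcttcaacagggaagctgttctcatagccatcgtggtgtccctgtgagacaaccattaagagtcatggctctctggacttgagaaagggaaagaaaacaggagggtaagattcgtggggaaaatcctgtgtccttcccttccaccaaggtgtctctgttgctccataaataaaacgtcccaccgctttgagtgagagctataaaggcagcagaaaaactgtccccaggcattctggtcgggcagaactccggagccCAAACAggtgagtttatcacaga
Atp6v1g3, chr1:138273488-138273787, plus strand: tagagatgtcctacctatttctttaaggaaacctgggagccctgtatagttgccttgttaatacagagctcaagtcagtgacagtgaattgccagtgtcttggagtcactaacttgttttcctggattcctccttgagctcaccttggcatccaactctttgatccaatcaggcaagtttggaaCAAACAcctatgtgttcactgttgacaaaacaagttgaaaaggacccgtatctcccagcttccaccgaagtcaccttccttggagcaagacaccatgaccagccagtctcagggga
Atp6v1b1, chr6:83742767-83743066, plus strand: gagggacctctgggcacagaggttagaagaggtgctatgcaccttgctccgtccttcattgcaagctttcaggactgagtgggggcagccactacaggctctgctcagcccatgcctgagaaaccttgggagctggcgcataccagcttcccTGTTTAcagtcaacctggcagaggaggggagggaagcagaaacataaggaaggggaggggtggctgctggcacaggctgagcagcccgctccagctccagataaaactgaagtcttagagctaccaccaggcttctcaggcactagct
Sult2a3, chr7:14122999-14123298, minus strand: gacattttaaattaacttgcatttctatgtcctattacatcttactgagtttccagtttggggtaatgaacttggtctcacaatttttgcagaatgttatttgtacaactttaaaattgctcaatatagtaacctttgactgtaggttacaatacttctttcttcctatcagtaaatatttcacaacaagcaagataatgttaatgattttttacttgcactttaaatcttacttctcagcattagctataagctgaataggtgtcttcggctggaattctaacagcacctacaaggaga
The window of Slc26a4 held 1 match, 27 bases after the start, that of Atp6v1g3 held 1 match 66 bases before it, and that of Atp6v1b1 held 1 match 98 bases before it. The letters were not in the Sult2a3 window. Of all 32851 windows of this length, 28.2% held at least 1 match, 13.4% TGTTTA and 18.2% TGTTTG. Among V-ATPase genes it was 4 of 20 windows (20%), or 4 of 17 genes with a window (23.5%), so the letters were no more frequent among the pump genes than among all windows. The printed windows of intercalated cell genes, all with a match, were thus not typical of the pump genes. A match describes the letters and does not show that a factor binds there.

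The 970 cells comprised 405, 184, 179 and 202 cells of the 4 libraries. They made up 3.68% of passing barcodes in young Tfebfl/fl (exact Clopper-Pearson 95% interval 3.33 to 4.04), 2.17% in young Tfebfl/fl KAP (1.87 to 2.51), 2.99% in aged Tfebfl/fl (2.57 to 3.45) and 2.91% in aged Tfebfl/fl KAP mice (2.53 to 3.34). The interval of the young Tfebfl/fl KAP library lay below the other 3, while those of the other 3 overlapped, and they cover counting error only, not how well each cell type survived digestion. With at most 20% mitochondrial UMIs the aged Tfebfl/fl library had the highest share (4.54% against 4.38% in young Tfebfl/fl). The interval of young Tfebfl/fl KAP (2.41 to 3.43) then overlapped that of aged Tfebfl/fl KAP (3.05 to 4.22). Among intercalated cells of both types the share was similar, at 58.7% (54.9 to 62.4), 59.0% (53.3 to 64.5), 57.2% (51.5 to 62.7) and 59.9% (54.5 to 65.2), and all 4 intervals overlapped. With Slc26a4 at 5 CP10k or more it was 49.4, 50.4, 50.6 and 55.9%. Type A cells, gated in the same way with Slc4a1 at 1 CP10k or more and above Slc26a4, numbered 285, 128, 134 and 135.

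Depth was high for single cells. The type B cells held 9407955, 5431032, 5861067 and 6056584 UMIs in total, with medians of 22799, 30569, 28724 and 24922 UMIs and 4785, 5213.5, 5530 and 5138.5 genes a cell. Mitochondrial genes took a median of 16.2, 15.0, 11.7 and 15.9% of UMIs. No type B barcode was shared between libraries, although 27 to 57 barcodes were shared by each pair of libraries over all barcodes.

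Slc26a4, which chose the members, had a median of 8.39 CP10k over the 970 cells and ranged from 1.01 to 45.2 CP10k, and the sum of Atp6v1g3 and Atp6v0d2 had a median of 43.2 CP10k and ranged from 5.10 to 140 CP10k. Just inside the gate were 37 cells with Slc26a4 from 1 to under 2 CP10k and 28 cells with the subunit sum from 5 to under 10 CP10k. Just outside were 22 cells with some Slc26a4 under 1 CP10k and 30 cells with a subunit sum above 0 and under 5 CP10k, and another 73 cells met the Slc26a4 rules with a subunit sum of 0. Of the members, 254 (26.2%) had Slc26a4 under 5 CP10k. Of 1747 cells with the subunit sum at 5 CP10k or more, 53 had neither exchanger and 9 had both at an equal level. A Slc4a1 UMI was found in 162 type B cells (16.7%).

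Many type B barcodes also carried RNA typical of neighbouring segments. In 482 cells (49.7%), at least 1 marker of another segment reached 5 CP10k: Aqp2, the vasopressin-regulated water channel of principal cells, in 311, Calb1, a calcium-binding protein of the connecting tubule, in 358, Slc12a1, the cotransporter of the thick ascending limb, in 24, and the proximal tubule transporters Slc34a1 plus Slc22a30 in 55. These cells had a median of 34423 UMIs and 5982.5 genes, against 18658 UMIs and 4240.5 genes in the other 488 cells. Their median Slc26a4 was 5.85 CP10k against 12.2 CP10k, their median subunit sum was 28.8 against 59.5 CP10k, and 17.2% against 2.87% were marked as doublets by Scrublet. Deeper cells with lower type B markers thus made up about as many of the members as cells in which none of these markers reached 5 CP10k. This held in each library (205, 93, 97 and 87 cells with such a marker, 200, 91, 82 and 115 without). Among type A cells the share was 62.3%. Whether these barcodes were pairs of cells, cells of a mixed identity or cells with free RNA was not tested.

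**Figure D1:**
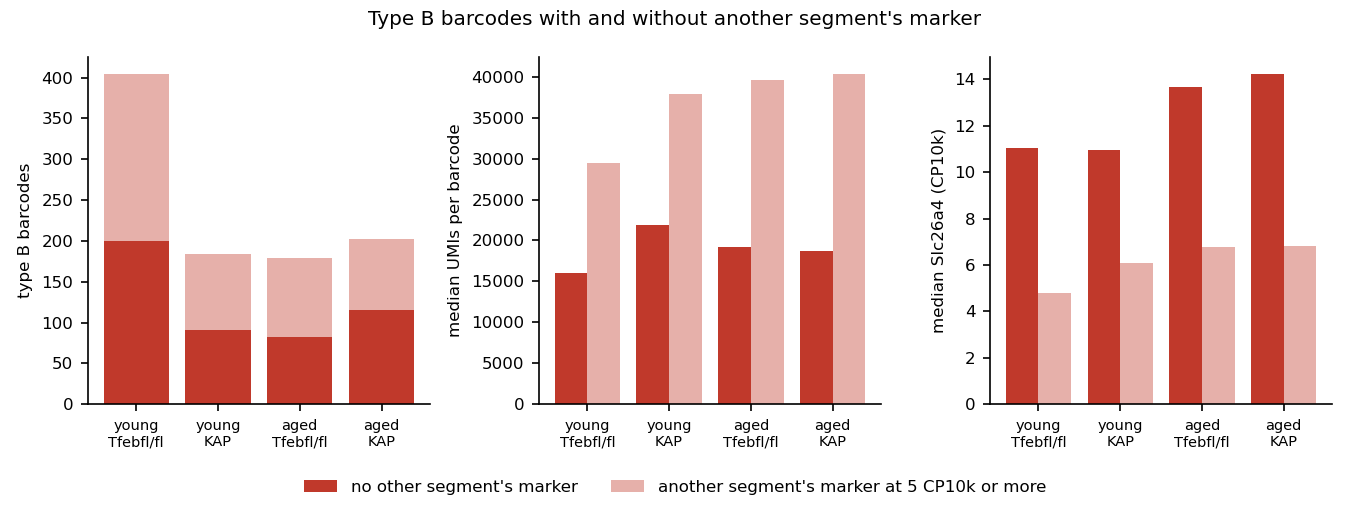
Type B barcodes with (light bars) and without (dark bars) a marker of another segment at 5 CP10k or more, by library: number of barcodes (stacked), median UMIs per barcode and median Slc26a4 in CP10k. In each library the light bars are taller for UMIs (29517 to 40392) than the dark bars (16019 to 21886) and shorter for Slc26a4.

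The label of type B intercalated cells fitted the markers that the gate did not use. Levels are given as CPM, the counts of a gene over all UMIs summed in the cells of a type and library, scaled to 1000000, and differences between cell types as the log2 ratio of CPM + 1 within each library, with the mean ± SD over the 4 libraries (n = 4). Slc4a9 was at 409.7, 434, 504 and 529.7 CPM in type B and 181, 179, 276 and 221 CPM in type A cells. It was higher in type B cells in each of the 4 libraries, by 1.14 ± 0.19 (edgeR adjusted p = 4.2e-08), and was detected in 95.3% of type B, 88.9% of type A and 5.49% of principal cells, so that AE4 marked both intercalated types against principal cells. Insrr separated the types more sharply, at 255, 279, 273 and 263 CPM in type B against 18, 30.3, 34.3 and 14.3 CPM in type A cells (3.50 ± 0.53, edgeR adjusted p = 2.7e-09). A UMI of Insrr was present in 91.6% of type B, 16.6% of type A and 3.37% of principal cells, and in 1.41% of proximal tubule cells, where it should be background. Both cell groups had been chosen by expression in these same cells, so genes that vary with the gating genes were favoured in every such comparison.

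Over all genes, edgeR's quasi-likelihood test on the sums of both cell types called 501 of 11551 genes (4.34%) different between type B and type A cells, 221 higher (1.91%) and 280 lower (2.42%) in type B cells. A gene was called at an adjusted p under 0.05 with a difference of at least 2-fold, and the 4 gating genes were left out. Against principal cells, taken as cells with Aqp2 at 5 CP10k or more and the subunit sum under 5 CP10k, 1755 of 12243 genes (14.3%) were called, 671 higher (5.48%) and 1084 lower (8.85%).

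**Figure D2:**
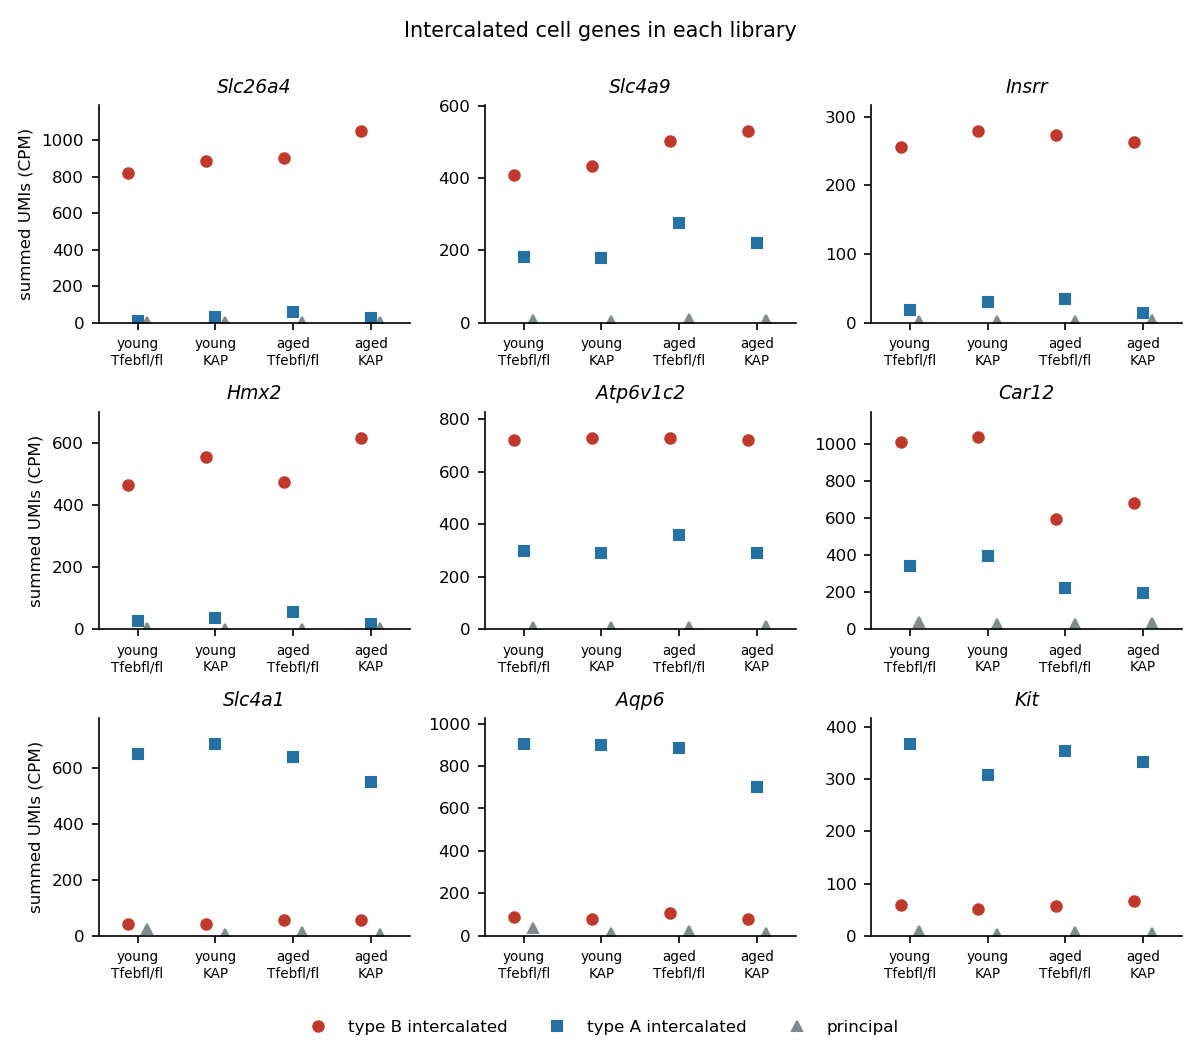
Levels of 9 intercalated cell genes in CPM of summed UMIs, by library, with a circle for type B, a square for type A and a triangle for principal cells. Insrr, Hmx2, Atp6v1c2 and Car12 are highest in type B cells of every library, Slc4a9 is also present in type A cells, and Slc4a1, Aqp6 and Kit are highest in type A cells. Slc26a4 and Slc4a1 chose the cells.

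Genes of the proton pump were higher in type B than in principal cells. Of 23 listed V-ATPase genes, 20 were tested, and 11 rose against principal cells and none fell (5.48% and 8.85% of all genes), with a median log2 fold change of 1.28 where that of all genes tested was -0.01. The largest difference outside the gate was that of Atp6v1c2, the tissue-restricted C subunit, at 720.1, 729.9, 729 and 720.0 CPM in type B and 10.6, 10.0, 7.77 and 11.3 CPM in principal cells (6.07 ± 0.22, edgeR adjusted p = 1.5e-09). Atp6v0c, of the proton-conducting ring, was at 3561, 3493, 2765 and 3157 against 635, 590.4, 551 and 571 CPM (2.46 ± 0.10), and Atp6v0a4 and Atp6v1b1, the kidney-specific a and B subunits, differed by 1.87 ± 0.18 and 1.33 ± 0.05, all 3 called higher. The 9 genes not called included Atp6v1b2, which differed by 0.55 ± 0.12, Atp6v0a2 by -0.16 ± 0.07 and Atp6v0d1 by -0.66 ± 0.15.

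Type B cells held more pump transcript than type A cells as well, but by less than 2-fold for most subunits. The summed level of the 21 genes outside the gate was 16002, 15863, 13422 and 14544 CPM in type B and 11991, 11864, 11028 and 10605 CPM in type A cells, without overlap. With the gating subunits included, the sums were 19712, 20389, 17011 and 19133 against 13910, 14153, 13155 and 12827 CPM. Without cells carrying markers of other segments these became 25914, 26042, 21295 and 23747 against 20601, 21013, 19665 and 17868 CPM. The relative difference was then smaller in each library, and the part of other segments' RNA in it was not tested. Of the 20 genes tested, 1 was called higher and none lower, near the share of all genes (1.91% and 2.42%), with a median of 0.38 against 0.00 for all genes tested. The called gene was Atp6v1c2 (299.9, 292, 358 and 291 CPM in type A cells), which differed by 1.23 ± 0.14 (edgeR adjusted p = 5.7e-09). Atp6v1b1, at 412, 425, 467 and 448 CPM in type B and 431, 395, 505 and 471 CPM in type A cells, differed by -0.04 ± 0.10, within the spread between libraries. The gating subunit Atp6v1g3, given as a description, was at 3016, 3792, 2974 and 3969 CPM in type B and 1451, 1826, 1648 and 1821 CPM in type A cells.

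Carbonic anhydrases supply the protons and bicarbonate that intercalated cells move. Car12, a membrane-bound form, was at 1008, 1035, 594 and 683 CPM in type B and 344, 396, 221 and 194 CPM in type A cells (1.54 ± 0.19, edgeR adjusted p = 3.3e-09), and at 42.1, 31.1, 28.3 and 35.6 CPM in principal cells. Car15, another membrane-anchored form, was higher in type B than in type A cells (1655, 1465, 1608 and 1399.8 against 419, 417, 625 and 671 CPM, 1.55 ± 0.42), but its difference from principal cells (0.37 ± 0.81) did not pass the test. The cytosolic Car2 differed by 0.44 ± 0.17 from type A cells, under 2-fold, and was called higher than in principal cells (1.29 ± 0.16). Of 9 listed carbonic anhydrases 6 were tested, of which 2 were called higher and none lower against type A cells (1.91% and 2.42% of all genes), and 2 higher and 1 lower against principal cells (5.48% and 8.85%).

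Among exchangers, pendrin chose the cells and was at 819, 886, 901 and 1049.8 CPM in type B and 7.83, 32, 58.2 and 28.8 CPM in type A cells, while Slc4a1 was at 40.7, 42.2, 56.3 and 56.8 and 650.4, 686, 638 and 552 CPM. Slc26a7, a chloride-bicarbonate exchanger of type A cells, was at 1.81, 0.552, 0.341 and 0.495 CPM in type B and 44.5, 34.4, 4.79 and 4.15 CPM in type A cells, and was called lower (-3.11 ± 1.36, edgeR adjusted p = 1.1e-07). Slc4a8, the sodium-driven exchanger that takes part in electroneutral sodium chloride uptake, was at 15.1, 13.8, 14.7 and 15.4 CPM and did not reach 2-fold against type A cells (-0.53 ± 0.20). Against principal cells, at 28.2, 36.1, 37.3 and 33.8 CPM, it was called lower (-1.14 ± 0.21).

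Of 18 tested channels and other transporters, 6 were higher and 1 lower than in principal cells (5.48% and 8.85% of all genes), and none was higher and 2 were lower than in type A cells (1.91% and 2.42% of all genes). The chloride-proton exchanger Clcn5 of endosomes was at 384, 381, 319 and 259.6 CPM in type B and 42.5, 40.8, 42.1 and 42.3 CPM in principal cells (2.95 ± 0.28, edgeR adjusted p = 2.2e-08), and Bsnd differed by 2.11 ± 0.23. Fxyd2, a regulator of the sodium pump, was at 4997, 4317, 5126 and 5211 CPM in type B and 843, 853, 1268 and 1107 CPM in principal cells (2.29 ± 0.23). The potassium channel Kcnj1, of principal cells, was the 1 gene called lower (-1.31 ± 0.17). Against type A cells the 2 genes called lower were Aqp6, a water channel of intracellular vesicles, at 87.9, 77.3, 109 and 81.6 against 903, 900.2, 885 and 701 CPM (-3.24 ± 0.24, edgeR adjusted p = 8.9e-11), and the cotransporter Slc12a2 (-1.06 ± 0.55). The ammonia transporters Rhbg and Rhcg did not pass against type A cells, with differences of -0.38 ± 0.09 and -0.21 ± 0.08.

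Of 16 tested receptor and hormone-response genes, 7 were higher and 6 lower than in principal cells (5.48% and 8.85% of all genes). Against type A cells 15 were tested, with 3 higher and 2 lower (1.91% and 2.42% of all genes). Avpr1a, the V1a vasopressin receptor, was at 174, 167, 139.6 and 167 CPM in type B and 126, 131, 98.8 and 108 CPM in type A cells, but at 2.78, 1.82, 2.51 and 2.58 CPM in principal cells (5.58 ± 0.24, edgeR adjusted p = 1.5e-09). Oxgr1, the receptor for alpha-ketoglutarate, was at 216, 193, 247 and 209 CPM and likewise differed from principal cells (4.17 ± 0.15) and not by 2-fold from type A cells (-0.21 ± 0.06). The prostaglandin receptor Ptger3 was called higher than in both (50.5, 32.6, 45.7 and 43.4 CPM, 1.11 ± 0.27 against type A and 2.74 ± 0.07 against principal cells). P2ry14, a receptor for UDP-glucose, was lower than in type A cells (6.48, 6.44, 9.55 and 8.75 against 49.3, 55.1, 27.2 and 33 CPM, -2.22 ± 0.72). The vasopressin V2 receptor Avpr2, of principal cells, was lower than there (-2.36 ± 0.24).

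Of 13 transcription factors and Notch pathway genes, 2 were higher and 2 lower than in type A cells, where 1.91% and 2.42% of all genes were, and 4 higher and 2 lower than in principal cells, where 5.48% and 8.85% were. Foxi1 was at 228, 230.3, 278 and 337 CPM in type B and 219, 192, 378 and 326 CPM in type A cells (-0.02 ± 0.30), which overlapped, and at 9.39, 4.15, 12.8 and 8.30 CPM in principal cells (4.87 ± 0.56, edgeR adjusted p = 7.9e-08). The homeobox factor Hmx2 was at 462, 555, 474 and 616 CPM in type B and 27, 35.5, 55.5 and 15.8 CPM in type A cells (4.06 ± 0.87, edgeR adjusted p = 4.1e-08), with a UMI in 93.7% of type B, 12.9% of type A and 3.37% of principal cells. Dmrt2 showed the opposite pattern, at 8.29, 6.63, 17.1 and 24.6 against 138, 130.2, 177 and 167 CPM (-3.50 ± 0.63, edgeR adjusted p = 2.9e-08). Jag1, a ligand of Notch receptors, was at 174, 188, 161 and 168 CPM in type B, 47.8, 50.1, 47.1 and 31.4 CPM in type A and 18.2, 15.7, 16.9 and 17.2 CPM in principal cells, and was called higher against both (1.97 ± 0.28 and 3.27 ± 0.16). Hes1, a Notch target of principal cells, was at 162, 121, 219 and 176 CPM and differed by -0.84 ± 0.15 from principal cells, under the 2-fold limit.

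Of 8 genes listed as type A markers, 7 could be tested, of which 5 were lower and 2 higher in type B cells, where 2.42% and 1.91% of all genes were. The 5 were Aqp6, Dmrt2, P2ry14, the receptor tyrosine kinase Kit (58.7, 50.8, 57.2 and 65.9 against 367, 308, 354 and 333 CPM, -2.53 ± 0.14) and the adhesion receptor Adgrf5 (82.1, 71.1, 93.3 and 85.7 against 612, 593, 585 and 516 CPM, -2.78 ± 0.22). The 2 higher were Hmx2 and Jag1, against the list that held them. All 5 type A genes were nonetheless detected in type B cells of every library, below the levels of type A cells and without overlap.

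**Figure D3:**
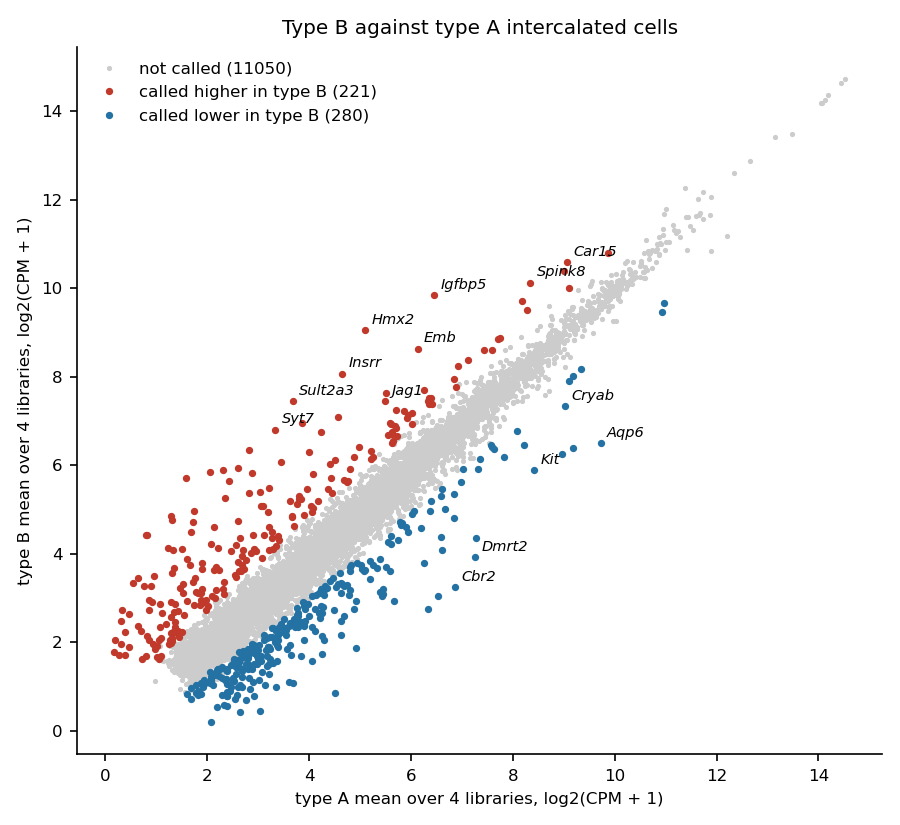
Mean log2(CPM + 1) over the 4 libraries in type A cells (horizontal axis) and type B cells (vertical axis), 1 point a gene, with 221 genes called higher in type B cells in red, 280 called lower in blue and 11050 not called in grey. Hmx2, Insrr and Igfbp5 lie farthest above the grey band among the labelled genes at higher levels, and Aqp6, Dmrt2 and Cbr2 below it.

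Genes outside these lists differed from type A cells by as much. Syt7, a calcium sensor of exocytosis, was at 123, 143, 85.6 and 92 CPM in type B and 4.33, 16.9, 11.9 and 3.37 CPM in type A cells (3.68 ± 0.93). Igfbp5, a binding protein of insulin-like growth factors, was at 1389.7, 987, 598 and 688 against 118, 105, 82.2 and 44.1 CPM (3.39 ± 0.46, edgeR adjusted p = 1.8e-09). Emb, an adhesion protein that accompanies monocarboxylate transporters, was at 432, 397, 402 and 354 against 73.6, 72.2, 63.8 and 66.7 CPM (2.50 ± 0.11, edgeR adjusted p = 6.5e-11), with the smallest spread of these. The myelin protein gene Pmp22, Enpp2, which makes lysophosphatidic acid, the adaptor Stap1, Nbea and the protease inhibitor gene Spink8 were also among the 12 highest, at 3.14 ± 0.80, 2.63 ± 0.60, 2.54 ± 0.27, 2.15 ± 0.26 and 1.78 ± 0.09. Among the 12 lowest, the carbonyl reductase Cbr2 (-3.58 ± 0.18), the membrane protease Mme (-2.73 ± 0.31), creatine kinase Ckb (-2.85 ± 1.39) and Tgif1 (-2.04 ± 0.13) were lower in every library. Aqp4, Gm43305 and Cryab, also among these, were higher in principal than in type A cells of each library, and Aqp2 was at 928, 885, 662 and 771 CPM in type B and 1790.0, 2498, 1794 and 1875 CPM in type A cells, so principal cell RNA moved with them. Its part in these 3 differences was not tested.

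Against principal cells, the 12 highest also held Hepacam2 (344, 260.4, 302 and 309 against 4.76, 3.29, 6.86 and 5.50 CPM, 5.67 ± 0.31), the acyl-CoA thioesterase gene Acot3 (5.39 ± 0.47) and Ociad2 (5.64 ± 0.54). They were called higher than in type A cells too, by 1.34 ± 0.20, 1.33 ± 0.43 and 1.28 ± 0.19. All 7 tested principal cell markers were lower than in principal cells, with Fxyd4 at 615, 799, 615 and 803 against 4321, 5340.3, 4463 and 4634 CPM (-2.73 ± 0.15). Of 20 genes of antigen presentation and interferon response, 11 were lower and none higher than in principal cells (median -1.34), where 8.85% of all genes were lower. Against type A cells 1 of 20 was lower (median -0.43), near the 2.42% of all genes. Markers of other cell types were also lower than in principal cells. These were 4 of 5 endothelial (median -1.22), 2 of 2 podocyte (-2.04) and 9 of 12 proximal tubule markers (-1.49), with 1 proximal marker higher. None of 4 immune markers was called there, and 1 of 3 stromal markers was higher. The part of such RNA in the antigen presentation difference was not tested. None of 77 nuclear genes of oxidative phosphorylation was called in either comparison, with medians of 0.20 and 0.50. Of 46 lysosomal genes, 7 were higher and 1 lower than in principal cells (5.48% and 8.85% of all genes). Against type A cells 1 was higher and 1 lower, about the share of all genes (1.91% and 2.42%).

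Tfeb itself, the gene deleted in the proximal tubule, was at 27.4, 33.5, 38.6 and 39.1 CPM in type B cells. The libraries of Tfebfl/fl KAP mice were not below their controls, and the 3′ counts do not show whether an exon is missing, so this level does not check the deletion. Mitf, of the same family, was at 53.8, 52.8, 66.2 and 59.6 CPM and Tfe3 at 15.2, 21.9, 27.3 and 21.8 CPM, and all 3 differed by under 2-fold from type A and principal cells. The fourth member, Tfec, was at 1.38, 0.737, 0.512 and 0.660 CPM in type B and 2.10, 1.64, 1.60 and 2.92 CPM in principal cells and was called lower than in principal cells (edgeR log2 fold change -1.14, adjusted p = 0.025; the ratio of CPM + 1 was -0.75 ± 0.36). In type B cells 3 UMIs amounted to 0.319, 0.552, 0.512 and 0.495 CPM, so this call rested on few UMIs.

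The 2 comparisons of age shared no library. A gene was counted as past 2-fold if its log2 ratio was at least 1 in size and its exact 95% interval, for counting error only, left out 0, among genes with a mean of at least 50 CPM. In Tfebfl/fl mice, 55 of 3220 genes (1.71%) were past 2-fold, 32 higher (0.994%) and 23 lower (0.714%) in aged type B cells. In Tfebfl/fl KAP mice, 22 of 3140 genes (0.701%) were past 2-fold, 12 higher (0.382%) and 10 lower (0.318%). Of 3052 genes measured in both, 6 were past 2-fold higher in both (0.197%), none was lower in both (0%) and none was opposite. Log2 ratios of all genes had medians of 0.06 and -0.02. Scaling by the trimmed mean of M values (TMM) shifted the former to -0.06 and turned the split to 23 higher and 28 lower. Without barcodes marked as doublets the split in Tfebfl/fl mice was 33 higher and 8 lower, and without cells carrying markers of other segments 84 higher and 10 lower.

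Sult2a3, a cytosolic sulfotransferase of the family that acts on steroids and bile acids, had the largest ratio of the 6 genes higher in both. It was at 7.02, 9.57, 301 and 377 CPM, from 66, 52, 1767 and 2281 UMIs. Both aged libraries lay far above both young ones, by 5.43 (95% interval 5.07 to 5.80) in Tfebfl/fl and 5.30 (95% interval 4.90 to 5.72) in Tfebfl/fl KAP mice on the log2 scale, about 43.0- and 39.3-fold. A UMI was found in 4.4 and 4.3% of young and in 81.0 and 74.3% of aged type B cells, and, after each cell was thinned to 2000 UMIs, in 1.2 and 1.1% and in 45.8 and 48.5%. The signal was spread over most aged cells and nearly absent from the young, where 51.9% of the UMIs of the Tfebfl/fl KAP library came from 1 cell.

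In type A cells Sult2a3 was at 0.167, 3.50, 24.2 and 19.5 CPM, with a UMI in 0.4, 0.8, 9.7 and 11.9% of cells, and in principal cells at 0.247, 0.346, 1.37 and 0.673 CPM. Type B cells lay above type A cells in every library (2.95 ± 1.29, edgeR adjusted p = 1.9e-08, and 0.078 without the library block), with ratios from 1.23 to 4.21. Proximal tubule cells had 0, 0.0453, 0 and 0.249 CPM. Aged type A cells were also above young ones, at a lower level. Among aged type B cells without markers of other segments, 87.8 and 83.5% had a UMI, against 75.3 and 62.1% of those with them, and the level without the latter was 6.73, 23.3, 584 and 675 CPM. The other 7 members of the Sult2a family in the files summed to 0, 0, 10 and 29 UMIs in type B cells. Their sequences resemble that of Sult2a3, so reads that fit several copies may have been dropped or assigned to 1 of them in counting, and the level of Sult2a3 is uncertain in that respect.

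Scg5, a chaperone of prohormone convertase PC2 in secretory granules, was at 74.8, 61.7, 368 and 227 CPM. The aged libraries were higher by 2.30 (95% interval 2.17 to 2.42) in Tfebfl/fl and 1.88 (95% interval 1.71 to 2.06) in Tfebfl/fl KAP mice, and both aged levels lay above both young levels. In type A cells the log2 ratios were 1.59 and 1.50 and in principal cells 1.55 and 1.48, so that Scg5 was higher in aged cells of all 3 types.

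Id3, an inhibitor of basic helix-loop-helix factors induced by bone morphogenetic protein signalling, was at 69.6, 67.4, 203 and 186 CPM. Its log2 ratios were 1.54 (95% interval 1.40 to 1.68) and 1.47 (95% interval 1.30 to 1.64). In type A cells, at 140.4, 245, 266 and 252 CPM, they were 0.92 and 0.04, and in principal cells, at 269, 320.4, 335 and 266 CPM, 0.32 and -0.27. Type B cells had the lowest Id3 of the 3 cell types in every library. Whether the age difference varied between cell types was not tested, since each condition had 1 library.

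The other 3 genes higher in both were Ifi27, an interferon-inducible gene, at 30.6, 35.5, 81.9 and 75.5 CPM, the homeobox gene Emx1 at 43.9, 36.1, 95.4 and 87.2 CPM, and AC149090.1 at 31.9, 28.5, 73.7 and 73.6 CPM. Log2 ratios were 1.42 and 1.09 for Ifi27, 1.12 and 1.27 for Emx1, and 1.21 and 1.37 for AC149090.1. In type A cells they were 1.60 and 1.59, 1.03 and 1.23, and 1.21 and 1.38, of similar size. Of 10 alternative settings, Sult2a3, Scg5 and Id3 stayed past 2-fold in both comparisons under all 10, Ifi27 under 6, AC149090.1 under 5 and Emx1 under 2. Without cells carrying markers of other segments, Emx1 in type B cells was at 7.31, 10.6, 49 and 37.9 CPM, below its level in all type B cells in each library.

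**Figure D4:**
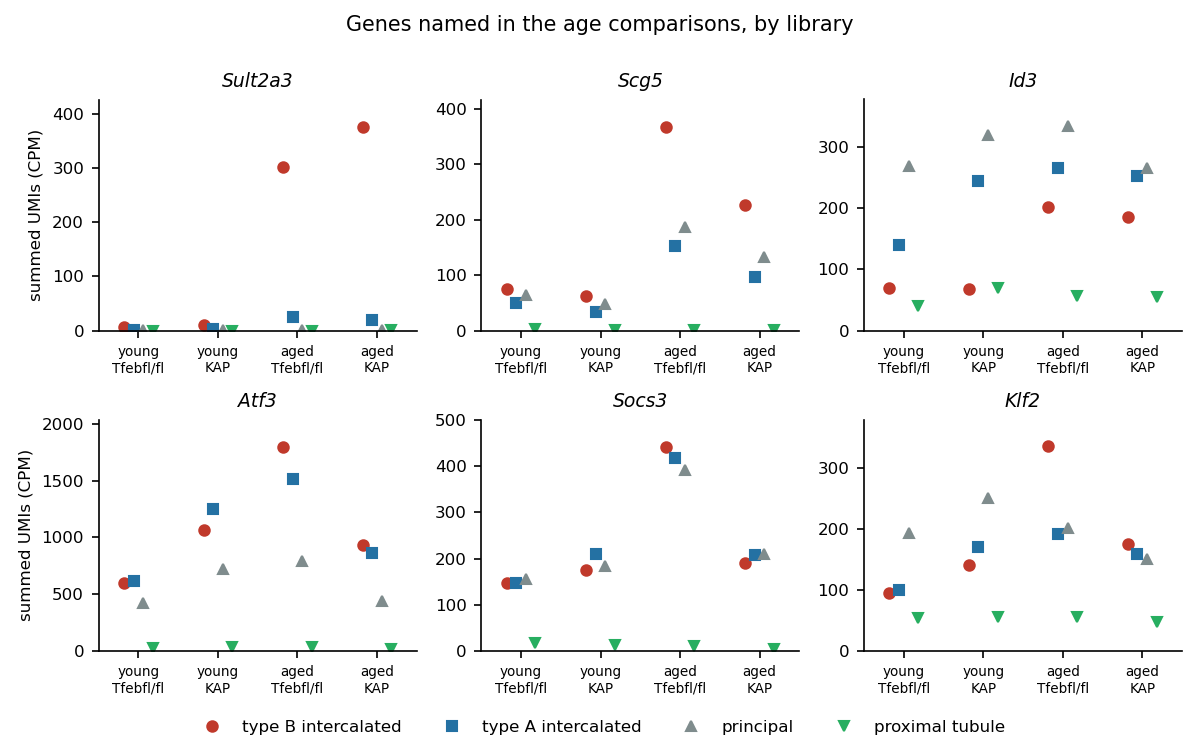
Levels of 6 genes named in the age comparisons in CPM of summed UMIs, by library, with 1 symbol for each of type B, type A, principal and proximal tubule cells. Sult2a3 is high only in type B cells of the 2 aged libraries (301 and 377 CPM), Scg5 is higher in all 3 distal cell types of both aged libraries, and Atf3, Socs3 and Klf2 are highest in type B cells of the aged Tfebfl/fl library.

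In Tfebfl/fl mice the 5 highest were Sult2a3, Scg5, Stc1, Klf2 and Irf1. The hormone stanniocalcin 1 gene Stc1 was at 61.4, 59.5, 251 and 107 CPM, the shear- and stress-responsive factor Klf2 at 94.3, 141, 336 and 175 CPM and the interferon-regulated factor Irf1 at 58.6, 67.6, 179 and 70.7 CPM. The aged Tfebfl/fl library stood above the other 3 in Klf2 and Irf1. The 5 lowest included Miox, Kap, Wfdc15b and Mcoln3, of which Miox and Kap are proximal tubule genes. Mcoln3, an endolysosomal cation channel, was at 79.5, 60.2, 21 and 33.5 CPM.

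In Tfebfl/fl KAP mice the 5 highest were Hbb-bs, Sult2a3, Scg5, Id3 and AC149090.1. Hbb-bs, a haemoglobin chain of red cells, was at 0, 0, 0 and 116 CPM, with no UMI in type B cells of the young Tfebfl/fl KAP library. Between genotypes in aged mice it was not among genes past 2-fold with Slc26a4 at 5 CP10k or more or with each cell weighted equally. The 5 lowest were 4930469K13Rik, Gdf15, Cldn4, Calb1 and Tfrc. Gdf15, a stress-induced cytokine, was at 56.5, 85.8, 67.6 and 26.1 CPM, the tight junction gene Cldn4 at 87.9, 159, 118 and 61.6 CPM and the transferrin receptor gene Tfrc at 68.1, 83.2, 52.7 and 36 CPM. Calb1, at 1727, 1489, 936 and 629 CPM, was lower in both aged libraries, with ratios of -0.88 and -1.24, and in principal cells it was at 3131, 2948, 1671 and 1411 CPM.

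Of the listed anion exchangers and bicarbonate transporters, 3 were above the level limit in the age comparison of Tfebfl/fl mice. Slc4a9 differed by 0.30 there and by 0.29 in Tfebfl/fl KAP mice. The sodium-bicarbonate cotransporter gene Slc4a4, also a gene of the proximal tubule, was at 106, 30.9, 46.4 and 38.8 CPM in type B and 1601, 1451, 1531 and 1406 CPM in proximal tubule cells, and was past 2-fold lower in aged Tfebfl/fl type B cells (-1.19). Without cells carrying markers of other segments it was at 6.43, 6.34, 17.1 and 9.16 CPM. Slc26a4, which chose the cells in every library and is given as a description, differed by 0.14 and 0.24. The receptor gene Insrr differed by 0.10 and -0.08. Car12 had ratios of -0.76 (95% interval -0.82 to -0.71) in Tfebfl/fl and -0.60 (95% interval -0.66 to -0.54) in Tfebfl/fl KAP mice, and its 2 aged levels lay below both young levels. Car2 differed by -0.48 and -0.28. Atp4a, the gastric-type proton-potassium pump, was at 67.3, 71.8, 117 and 128 CPM, with ratios of 0.79 and 0.83, and in type A cells at 65.1, 78.9, 144 and 155 CPM.

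Of 17 V-ATPase genes outside the gate and above the level limit, none was past 2-fold in either age comparison. In Tfebfl/fl mice 13 had ratios below 0, with a median of -0.23, and in Tfebfl/fl KAP mice 15, with a median of -0.16. Atp6v0e was at 1856, 1665, 1275 and 1415 CPM and Atp6v0c at 3561, 3493, 2765 and 3157 CPM, with ratios of -0.54 and -0.24 and of -0.37 and -0.15. The 21 genes outside the gate also had lower sums in aged cells of the other types. They summed to 11991, 11864, 11028 and 10605 CPM in type A and 6228, 6010, 5551 and 5787 CPM in principal cells. In proximal tubule cells they summed to 3869, 3966, 3405 and 3413 CPM. In type B cells, nuclear genes of oxidative phosphorylation had 67 of 77 below 0 in Tfebfl/fl (median -0.22) and 69 of 77 in Tfebfl/fl KAP mice (median -0.11), and none past 2-fold. Over all genes tested the ratio was above 0 for 59.5% and 46.0%. Lysosomal genes had medians of -0.05 and 0.01. The nuclear genes of oxidative phosphorylation also had lower sums in aged cells of the other types. These were 64588, 71051, 58477 and 65296 CPM in type A and 52238, 55522, 45799 and 52450 CPM in principal cells. Proximal tubule cells had 48914, 52439, 46024 and 45737 CPM. Without cells carrying markers of other segments, type A cells had 71671, 80218, 71800 and 73790 CPM, no longer lower with age in Tfebfl/fl mice.

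**Figure D5:**
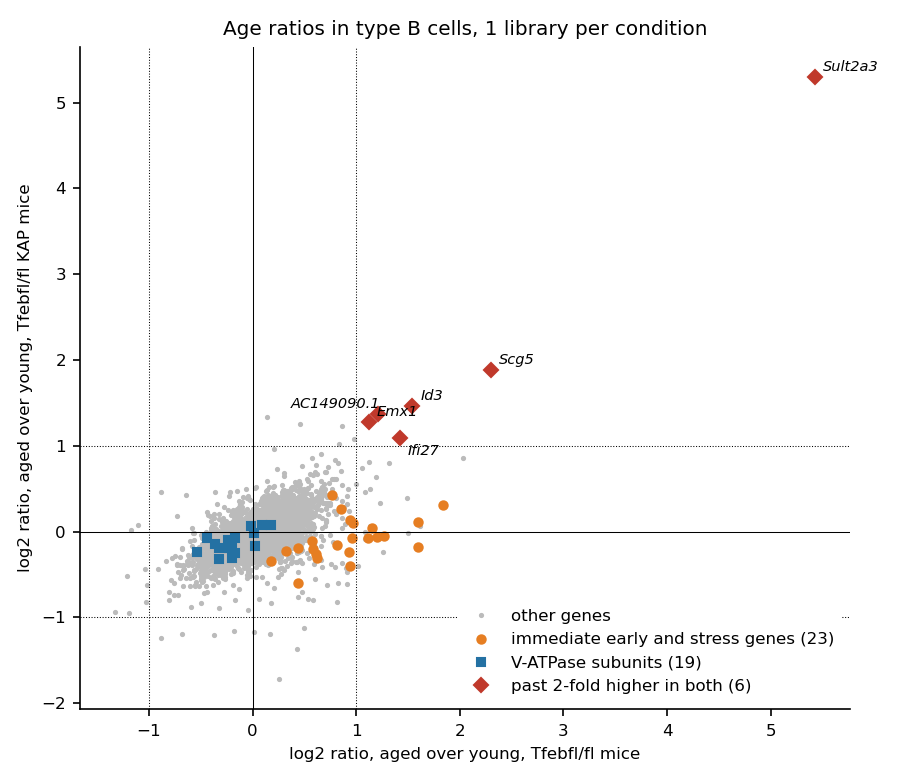
Log2 ratio of aged over young type B cells in Tfebfl/fl mice (horizontal axis) and in Tfebfl/fl KAP mice (vertical axis), 1 point a gene, with 2-fold marked by dotted lines. Sult2a3 (5.43 and 5.30) lies far from the other genes plotted, Scg5 (2.30 and 1.88) is the next of the genes higher in both, the 23 immediate early and stress genes (circles) lie right of 0, and most of the 19 V-ATPase subunits (squares, 2 of them gating genes) lie below 0 on both axes.

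All 23 listed immediate early and stress genes had ratios above 0 in aged Tfebfl/fl type B cells, with a median of 0.93 and 7 past 2-fold, where 59.5% of all genes were above 0 and 0.994% past 2-fold higher. In Tfebfl/fl KAP mice 7 were above and 16 below 0, with a median of -0.11 and none past 2-fold, where 46.0% of all genes were above 0. Their summed level was 14977, 17898, 27733 and 16502 CPM in type B cells, so that the aged Tfebfl/fl library stood apart from the other 3. It was also the highest in type A cells (16535, 22646, 27802 and 18855 CPM) and in principal cells (16576, 19475, 21506 and 15290.0 CPM). Without cells carrying markers of other segments, the sums were 13063, 18055, 28092 and 16759 CPM in type B cells and 14429, 19638, 17185 and 14803 CPM in type A cells, where the young Tfebfl/fl KAP library was then the highest. Such genes respond to tissue digestion, and the part of handling in this difference was not tested. Among them, Atf3 was at 596, 1064, 1799 and 937 CPM and Socs3, which limits cytokine signalling, at 146, 176, 442 and 191 CPM.

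The comparisons of genotype had few genes past 2-fold: 18 of 3096 (0.581%) in young mice, 1 higher (0.0323%) and 17 lower (0.549%) in Tfebfl/fl KAP mice, and 14 of 3243 (0.432%) in aged mice, 2 higher (0.0617%) and 12 lower (0.37%). Of 2954 genes in both, none was higher in both (0%) and 2 were lower in both (0.0677%), Kap and Gm42418. Without cells carrying markers of other segments the split in young mice turned to 7 higher and 2 lower, and Aqp6 and Gm42418 were the genes lower in both, and without barcodes marked as doublets Gm42418 was the 1 gene lower in both. Kap, the androgen-regulated protein of the proximal tubule whose promoter drives the Cre, was at 1604, 0, 312 and 15.4 CPM in type B cells. With no UMI in young Tfebfl/fl KAP type B cells, it was at least 2905-fold lower there than in young Tfebfl/fl, against a floor of 3 UMIs, and it was 20.3-fold lower in aged Tfebfl/fl KAP cells. Its UMIs lay in 43 of the 970 type B cells (4.43%), against 72.7% of proximal tubule cells, and the counts had been corrected for background RNA in each library. Gm42418, a transcript that overlaps ribosomal RNA, was at 1614, 269, 1681 and 156 CPM.

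Genes of the proximal tubule moved with these differences. The 12 listed proximal markers summed to 3397, 1029, 2287 and 1640 CPM in type B cells, with Gpx3 the most abundant and none at 0 in all 4 libraries. Without cells carrying markers of other segments the sums were 1377, 1206, 2644 and 2379 CPM, so that the young libraries were close to each other and both aged ones higher. In young mice the 5 lowest genes in Tfebfl/fl KAP were Kap, Miox, Slc27a2, Gatm and Gm42418, of which all but the last are abundant in proximal tubules. Without barcodes marked as doublets, 1 gene in place of 18 was past 2-fold. The doublet-marked share of type B cells was 13.3, 12, 5.59 and 5.45%. The 1 higher gene in young Tfebfl/fl KAP was Crip1 (38.2, 78.8, 54.3 and 80.9 CPM), and in aged mice the 2 higher genes were Hbb-bs, with no UMI in the aged Tfebfl/fl type B cells, and Sgk1, a kinase induced by aldosterone (232, 191, 125 and 264 CPM). Rnd3 (129.6, 123, 146 and 53.7 CPM), Irf1 and the sterol-regulated Insig1 (74.3, 76.6, 107 and 44.4 CPM) were among the lower genes of aged mice. No gene was past 2-fold higher in young mice without barcodes marked as doublets, and none in either comparison with Slc26a4 at 5 CP10k or more or with each cell weighted equally. Of 18 V-ATPase genes outside the gate in the young comparison none was past 2-fold (median 0.02), and of 17 in aged mice none (median 0.10). In aged Tfebfl/fl KAP against aged Tfebfl/fl type B cells, 75 of 77 nuclear genes of oxidative phosphorylation (median 0.20) and all 12 mitochondrially encoded genes above the level limit (median 0.32) had ratios above 0, none past 2-fold. Of the 23 immediate early and stress genes 22 were below 0 (median -0.75), with 2 past 2-fold lower. Over all genes 41.8% were above 0 and 0.37% past 2-fold lower. This comparison shares the aged Tfebfl/fl library with the age comparison above. The gating gene Slc26a4 differed by 0.11 in young and 0.22 in aged mice, as a description.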

How the data were processed

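Single-cell RNA-Seq (10x Genomics, 3′ ends) of renal cortex gave 1 library for each of 4 conditions. Per the labels and the paper's methods, the authors counted reads with Cell Ranger (version 6.0.0; the submitters' notes also name mm10 and Seurat 4.4.0) and then removed background RNA with SoupX. The deposited values are whole UMI counts per gene and barcode. Explicit zeros made up 2.90, 12.5, 9.41 and 12.9% of the entries, and a correction that differs between libraries can change the level of abundant genes of other cell types. Libraries held 194747936, 155327520, 125729484 and 135792884 counts. The table of gene names in the files was used as it stands, and proximal tubule cells were those outside the other gates with Slc34a1 plus Slc22a30 at 5 CP10k or more.

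UMIs of each cell type were added up within a library. Cell types were compared with edgeR (version 4.0.16, R 4.3.3; TMM, low counts filtered by filterByExpr, quasi-likelihood test, library as block, Benjamini-Hochberg adjustment) on 8 sums, with DESeq2 (version 1.42.0) as an alternative. The 4 libraries, of different conditions, are the replicates of these comparisons. Conditions, with 1 library each, were compared by log2 ratios of CPM with exact intervals from SciPy (version 1.17.1), which cover counting error only. Doublets were scored with Scrublet in Scanpy (version 1.11.5, Python 3.11.15), marked at 0.8% per 1000 barcodes and kept. The edgeR procedure was also run on simulated data, with results not given here.

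Named genes were the listed intercalated cell genes, the 12 largest differences each way per cell-type test with a mean of at least 50 CPM and the same direction in all 4 libraries, genes past 2-fold in both comparisons of a pair, the 5 highest and 5 lowest of each single comparison, and the Tfeb family. Some named genes are not reported here. Socs3 and Atf3 were named after their values were seen. Members and lists were chosen with earlier results of these data known. The alternatives were a 20% mitochondrial limit, Slc26a4 at 5 CP10k, no doublet-marked barcodes, no cells carrying markers of other segments, TMM scaling, CPM limits of 20 and 100, equal weight per cell, thinning to 2000 UMIs, no low-count filter, no library block and leaving out each library. The V-ATPase list was also taken without its 2 gating subunits, chosen after seeing the data.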

Additional observations from a re-analysis of the deposited data

Results flagged for a closer look

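Of the gene lists with at least 5 genes above the level limit in both age comparisons, those whose median log2 ratio of aged over young type B cells had opposite signs in the genotypes, and differed by at least 0.5, were 3. Mitochondrially encoded genes had a median of -0.40 in Tfebfl/fl and 0.21 in Tfebfl/fl KAP mice, and with at most 20% mitochondrial UMIs a barcode the medians were 0.18 and 0.53. Immediate early and stress genes had a median of 0.93 in Tfebfl/fl and -0.11 in Tfebfl/fl KAP mice. Genes of injury and inflammation, 5 of them above the level limit, had a median of 0.48 in Tfebfl/fl and -0.39 in Tfebfl/fl KAP mice. In Tfebfl/fl mice 3 of the 5 were above and 2 below 0, and the summed level of the whole list, at 7992, 6586, 6118 and 5726 CPM, was lower in the aged library, opposite to the median. The difference between the genotypes was not tested in any of the 3, since each condition has 1 library.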

How the results depend on the processing

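The share of type B cells among passing barcodes was 4.38, 2.89, 4.54 and 3.60% with at most 20% mitochondrial UMIs, 2.55, 1.54, 2.30 and 2.48% with Slc26a4 at 5 CP10k or more, and 1.88, 1.10, 1.41 and 1.70% without cells carrying another segment's marker. That among intercalated cells was 49.4, 50.4, 50.6 and 55.9% with the stricter Slc26a4 limit, and 66.9, 64.5, 61.2 and 67.3% without carrying cells. Among passing barcodes without carrying cells, the interval of young Tfebfl/fl KAP (0.88 to 1.34) overlapped that of aged Tfebfl/fl (1.12 to 1.75).

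Counts of genes past 2-fold depended on the level limit, on thinning and on the carrying cells. Between ages in Tfebfl/fl mice (55 genes) there were 108 and 30 genes at limits of 20 and 100 CPM, 137 after thinning, 94 (84 higher and 10 lower) without carrying cells and 86 (42 higher and 44 lower) with TMM as well. Between ages in Tfebfl/fl KAP mice (22 genes) the counts were 51, 9, 72, 43 and 45 in the same order. Between genotypes in young mice (18 genes) they were 47, 5, 42, 9 and 7, with 8 at the stricter Slc26a4 limit and 1 without doublets. Between genotypes in aged mice (14 genes) there were 30 at 20 CPM and 78 after thinning. Genes higher in both age comparisons (6) numbered 10 at the stricter Slc26a4 limit, 11 and 3 at 20 and 100 CPM, 10 after thinning, 19 without carrying cells and 16 with TMM as well (the last 2 with connecting tubule and principal cell genes such as S100g, Slc8a1 and Scnn1b, in cells whose connecting tubule markers summed to 4067, 4548, 11497 and 15611 CPM). Genes lower in both (0) numbered 3 at the stricter mitochondrial limit, 1 with TMM, 4 at 20 CPM, and 5 each with equal weight per cell, after thinning, without carrying cells and with TMM as well. Between genotypes, 1 gene was higher in both after thinning (0 otherwise reported), and 1 without doublets, 3 at the stricter Slc26a4 limit, 4 at 20 CPM and 4 after thinning were lower in both (2 otherwise reported). The median of the immediate early and stress genes between ages in Tfebfl/fl mice was 0.69 at the stricter mitochondrial limit. The causes of these shifts were not tested, apart from the level limits, which change the number of genes compared.

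The edgeR count against type A cells (501) stayed within 1.5 times under every alternative run, at 424 with DESeq2, 681 without the low-count filter and 495 to 526 when each library was left out. That against principal cells (1755) was 1699, 2328 and 1642 to 1763 in the same order. Without the library block the counts were 402 and 1585. Of 527 fold changes of named genes between cell types under the alternatives, 519 kept direction and call, 8 kept direction only (Sult2a3 and Aqp4 against type A cells without the library block, and Kap against principal cells under 6 settings) and none turned. Between ages, calls were lost more often: Sult2a3, Scg5 and Id3 stayed past 2-fold in both genotypes under all 10 alternatives, but Ifi27 under 6, AC149090.1 under 5 and Emx1 under 2. At 100 CPM these 3 were under the level limit, as was Emx1 without carrying cells, so those losses are not smaller ratios. No paired analysis was run: each condition has 1 library and no replicate number links the libraries of different mice. With 1 library of pooled mice a condition, variation between mice is not measured. Genes under 50 CPM were left out of the comparisons between conditions, and the counts at 20 CPM show that some of them differ beyond counting error.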

Other observations

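Without cells carrying markers of other segments, 488 type B cells remained, and 207 genes were higher and 246 lower than in type A cells by the same edgeR test, and 853 higher and 1481 lower than in principal cells. In these cells Sult2a3 had a log2 ratio of aged over young cells of 6.44 in Tfebfl/fl and 4.86 in Tfebfl/fl KAP mice, Scg5 of 2.59 and 2.05, and Id3 of 2.18 and 1.62. Connecting tubule markers still summed to 4067, 4548, 11497 and 15611 CPM, led by Klk1, with both aged libraries above both young ones. Calb1, a marker used to leave out cells, was itself lower in both aged libraries. How far the rule itself set this age difference was not tested.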
